A study of Mus musculus with 2 samples.

Results

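Genes of endoplasmic reticulum (ER) protein folding, degradation, translocation and stress signalling were examined in LPS-treated dendritic cells with and without the microRNA miR-155. The members were 41 genes given by name, and their values came from all 99 probe sets that the platform annotation assigns to exactly 1 gene, that gene being a member. The array as a whole had 34945 such probe sets for 18193 genes. Members were picked by gene name and not by a threshold on measured values, but with earlier results of these data known. Of the 41 genes, 40 had a signal above the floor defined below on both arrays, and Derl3 lay below it on both.

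The wild-type group was 1 sample of dendritic cells grown from C57BL/6J marrow. The knockout group was 1 sample of marrow-derived dendritic cells from miR-155-/- mice of the same strain, a knockout for which the labels name no restriction to a cell type, so that other marrow cells may lack it too. Both cultures were kept for 7 days with 20 ng/ml GM-CSF, a myeloid growth factor, and then given 10 ng/ml lipopolysaccharide (LPS), a bacterial product that activates innate immune cells. Cells without LPS were not part of the design, so a response of these genes to LPS was not measured, and the sources used here give neither the length of exposure nor the number of mice behind a sample. The labels name dendritic cells, while the growth protocol names macrophages.

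The deposited values are linear intensities with a median of 58.4 on the wild-type and 78.3 on the knockout array. Quantile normalization gave both arrays the same distribution, and its median, 67.6, served as a floor to which dimmer values were raised. Where probe sets of a gene competed, the one brightest on average stood for the gene. Signals in the text are these normalized intensities before the floor, and a difference is the log2 signal in the knockout less that in the wild type. Since each genotype had 1 array, replicate error could not be estimated, no p-value exists and every difference describes these arrays. A fixed size rule, at least 1.5-fold, stood in for a test. The error that could be measured was how far probe sets for 1 gene disagreed, with an SD of 0.29 over 4410 genes, which holds no variation between mice or cultures. It was 0.25 over the 23 members with at least 2 probe sets above the floor on both arrays. Fewer cells of a type and less RNA per cell cannot be told apart in such bulk samples.

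Mir155hg, the transcript that carries miR-155, had signals of 1136 (wild type) and 159 (knockout), but the sources used here do not say if its probes lie inside the deletion. Of 19 dendritic cell markers 18 were above the floor on both arrays, and Flt3 (62.8 and 88.8) only in the knockout. Itgax (CD11c) had signals of 4290 and 5331, the invariant chain gene Cd74 11584 and 11156, and the class II gene H2-Ab1 4407 and 3896 in wild-type and knockout cells. Cd80 (1235 and 716) and Cd86 (3040 and 2131), which encode co-stimulatory ligands, were 1.72-fold and 1.43-fold lower in the knockout.

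Proteins bound for secretion or the cell surface enter the ER through the translocon, are folded there by chaperones and disulfide isomerases, and are returned to the cytosol for degradation when folding fails. When unfolded protein builds up, the membrane sensors IRE1, PERK and ATF6 start the unfolded protein response: IRE1 splices the Xbp1 transcript, ATF6 is cleaved to an active factor, and PERK phosphorylates eIF2 alpha, which slows translation and favours that of ATF4. Dendritic cells secrete cytokines after LPS, and the IRE1 and XBP1 branch is known to be active in them. An array signal of Xbp1 does not tell its spliced from its unspliced form.

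Loss of miR-155 is the only designed difference between the samples, so its mature 5p strand is shown first. The extent of the deletion is not given here, and the other mature strand, miR-155-3p, is not printed. The 5p strand lies at chr16:84714143-84714165 on the plus strand of GRCm38.p6. Capitals mark its seed, bases 2 to 8, through which a microRNA pairs with target transcripts.
mmu-miR-155-5p: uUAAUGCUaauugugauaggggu

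Many ER chaperone genes share a promoter sequence, the ER stress response element (ERSE), in which CCAAT is followed by 9 free bases and CCACG and which is bound by ATF6 and XBP1 together with the CCAAT factor NF-Y. The RefSeq promoter table of GRCm38.p6 was read with 250 bases before and 50 after each start site. Manf, Hyou1, Derl1, Atf6, Sec61a1 and Sec11c had no entry in it. The other 35 of the 41 members had an entry. On either strand an exact match stood in 9 of the 39 promoters of these genes (23.1%), those of 9 genes, against 39 of 32851 promoters in the whole table (0.119%). The element is known from ER chaperone genes, which are among the members, so the higher share is not a result of these data. A match is a description of these letters and not a shown binding site. The matches are printed because they link genes of different roles, chaperones, lectin chaperones, an isomerase and degradation factors. Each is written in the direction of the motif, with its fixed bases in capitals.
Hspa5, chr2:34772025-34772043, plus strand: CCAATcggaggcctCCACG
Hsp90b1, chr10:86705638-86705656, minus strand: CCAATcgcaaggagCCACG
Hsp90b1, chr10:86705533-86705551, plus strand: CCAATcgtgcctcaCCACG
Dnajc3, chr14:118937827-118937845, plus strand: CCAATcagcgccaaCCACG
Creld2, chr15:88819520-88819538, minus strand: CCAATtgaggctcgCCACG
Calr, chr8:84847075-84847093, plus strand: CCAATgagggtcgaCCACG
Canx, chr11:50325800-50325818, minus strand: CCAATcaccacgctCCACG
Pdia6, chr12:17266491-17266509, plus strand: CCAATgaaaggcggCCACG
Syvn1, chr19:6046532-6046550, plus strand: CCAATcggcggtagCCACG
Derl3, chr10:75893242-75893260, minus strand: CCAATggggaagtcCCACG

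The promoters of the major ER chaperone genes Hspa5 and Hsp90b1 show where these elements stand. The stretches run from 250 bases before the start site up to it, on the gene's strand, at chr2:34771840-34772089 (plus strand) for Hspa5 and at chr10:86705445-86705694 (minus strand) for Hsp90b1. Capitals mark the fixed bases of each exact match, and the second match of Hsp90b1 reads in the opposite direction.
Hspa5: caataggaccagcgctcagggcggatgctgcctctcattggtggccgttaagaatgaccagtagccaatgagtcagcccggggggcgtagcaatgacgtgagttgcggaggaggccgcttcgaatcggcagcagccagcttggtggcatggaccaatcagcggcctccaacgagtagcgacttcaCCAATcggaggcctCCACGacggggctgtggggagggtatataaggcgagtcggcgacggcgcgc
Hsp90b1: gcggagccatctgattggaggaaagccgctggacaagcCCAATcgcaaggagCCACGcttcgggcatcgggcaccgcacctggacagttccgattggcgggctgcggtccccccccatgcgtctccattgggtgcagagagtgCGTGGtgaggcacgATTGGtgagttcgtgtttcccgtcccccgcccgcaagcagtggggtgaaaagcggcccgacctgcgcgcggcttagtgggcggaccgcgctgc

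Of the 40 measured members, none differed by 1.5-fold or more between the knockout and the wild-type array in either direction. Of all 11878 genes measured, 4.57% passed this size as higher and 4.1% as lower, together 8.67%. Brighter genes scatter less on such arrays, and among the 1932 measured genes at or above the median member level (1095) the share was 3.57%, against 0 of 20 members there. The 40 differences ran from -0.24 for Manf to 0.56 for Pdia4, with a median of 0.06 and an interquartile range of 0.27. All measured genes had a median of 0.01 and an interquartile range of 0.38, and the bright genes 0.02 and 0.26. The signs were mixed, with 25 members higher and 15 lower in the knockout, beside 51.5% of all measured genes higher. Of the 40 members 6 differed by more than the probe set SD, all of them higher, while 32.7% of all measured genes did so. Level matters here too, since among the bright genes 351 of 1932 did so, beside 1 of 20 members there.

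**Figure D1:**
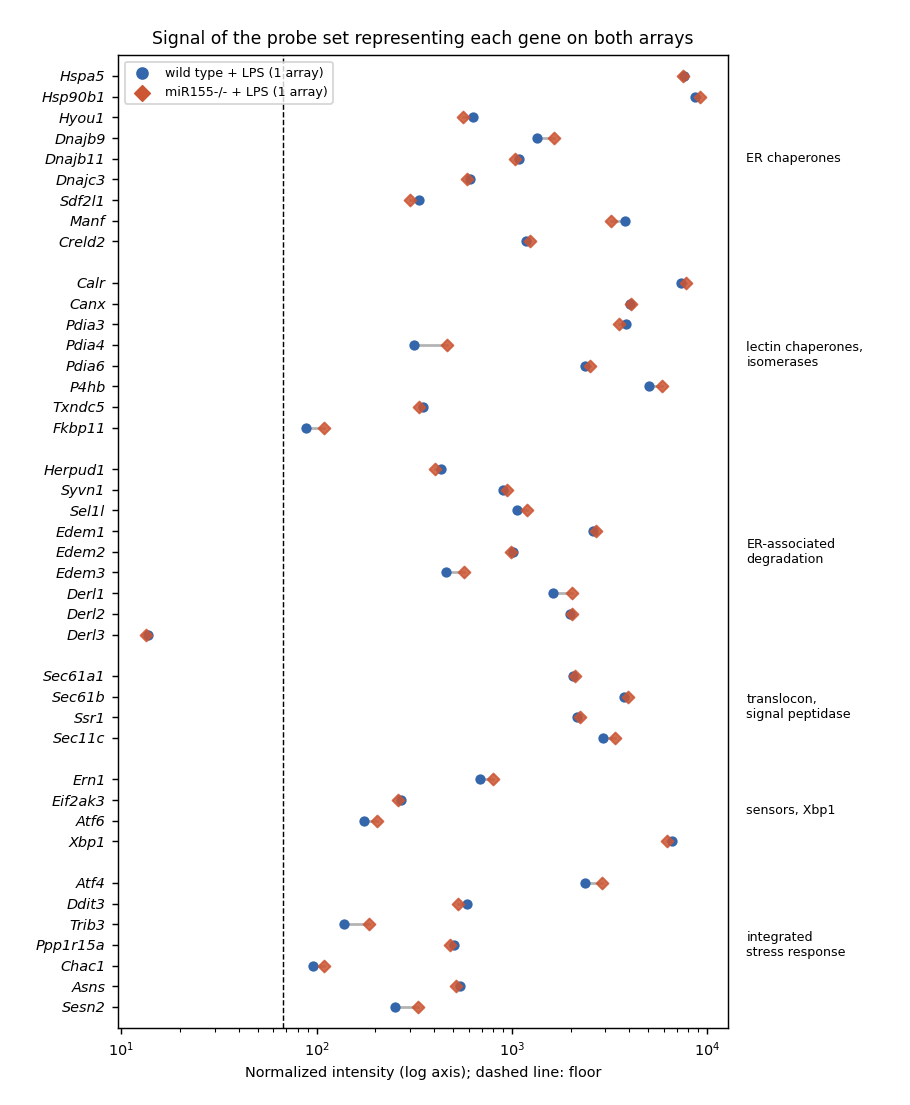
Normalized intensity (log axis) of the probe set that represents each of the 41 member genes on the wild-type (circles) and knockout (diamonds) array, ordered by role; the dashed line is the floor of 67.6. The paired symbols lie close together for most genes, Pdia4 (317 and 466) shows the widest gap, and Derl3 stands below the floor on both arrays.

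None of the 9 chaperones and co-chaperones of the ER lumen differed by more than the probe set SD at the probe set that stood for it. Hspa5, which encodes BiP, the main Hsp70 chaperone of the ER, had signals of 7607 in wild-type cells and 7498 in the knockout, a difference of -0.02. Hsp90b1, the gene of the Hsp90 chaperone GRP94, had 8701 and 9220. Their second probe sets pointed apart, at 0.11 for Hspa5 and -0.24 for Hsp90b1, each inside that SD.

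Among the co-chaperones that work with BiP, Dnajb9 differed most, at 1343 in wild-type cells and 1636 in the knockout (0.28). Dnajb11 had signals of 1093 and 1034, and Dnajc3, also known as p58IPK, 611 and 592. Hyou1, a large Hsp70-like protein of the ER, was at 632 and 563. Sdf2l1, a partner of the ER J proteins, was at 333 and 302. At the probe sets that represent them, all of these except Dnajb9 were lower on the knockout array. For Dnajc3, however, 3 of 5 probe sets were higher.

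Manf, a secreted ER stress-induced protein, had the lowest difference of all members, at 3804 in wild-type cells and 3213 in the knockout (-0.24, 1.18-fold lower). Creld2, a small ER protein induced together with Manf, was at 1177 and 1241. The median of the chaperone group was -0.05, and 6 of the 9 were lower. Less the median of all genes, the group median ran from -0.09 to -0.02 over the 10 processing settings. The signs themselves depended on the scaling, since with median centring 8 of the 9 lay above 0.

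Calr and Canx encode calreticulin and calnexin, the lectin chaperones that hold glycoproteins during folding. Calr was at 7303 in wild-type cells and 7791 in the knockout (0.09), with all 3 of its probe sets higher. Canx was at 4022 and 4082 (0.02), with its other probe sets at -0.19 and -0.15. Neither gene departed from 0 by more than the probe set SD.

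Protein disulfide isomerases form and rearrange the disulfide bonds of secretory proteins. Pdia4 had the largest difference of any member, with 317 in wild-type cells and 466 in the knockout (0.56, 1.47-fold higher), just under the size rule. Of the 500 measured genes nearest to it in level, 456 had a smaller difference in size. Its second probe set was under the floor in wild type and barely above it in the knockout (47.2 and 73.4), giving a lower bound of 0.12.

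The other isomerases differed less. P4hb, which encodes PDI itself, was at 5052 in wild-type cells and 5880 in the knockout (0.22). Pdia6 had signals of 2356 and 2511, and Pdia3, the partner of the lectin chaperones, 3818 and 3554. Pdia3 had a second, dim probe set at 34.0 and 102.2, at least 1.51-fold higher in the knockout, the only member probe set past the size rule in that direction.

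Txndc5, a thioredoxin-domain isomerase, was at 349 and 335, and its probe sets agreed closely (-0.06 and -0.04). Fkbp11, a prolyl isomerase of secretory cells, was dim at 88.1 in wild-type cells and 109.2 in the knockout (0.31). At that level the difference was ordinary, since it exceeded in size that of 250 of its 500 nearest genes. In this group of lectin chaperones and isomerases 6 of 8 genes were higher, with a median of 0.09.

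ER-associated degradation takes misfolded proteins from the ER to the proteasome. Its ubiquitin ligase gene Syvn1 (HRD1) was at 897 in wild-type cells and 940 in the knockout (0.07). Sel1l, whose product anchors that ligase complex, was at 1064 and 1192 (0.16), but 3 of its 5 probe sets were lower. Herpud1, an ER stress-induced organiser of the complex, was at 432 and 404 (-0.10), whereas its second probe set, at 289 and 393, had a difference of 0.45.

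The EDEM proteins help mark misfolded glycoproteins for disposal by mannose trimming. Edem1 was at 2599 in wild-type cells and 2696 in the knockout (0.05), with the second probe set at -0.40, and Edem2 was at 1008 and 994 (-0.02). Edem3 was at 457 and 567 (0.31), and its second probe set had a similar difference of 0.37. Edem3 was one of 6 members among 23 whose probe sets above the floor on both arrays all shared a direction.

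The derlins are membrane proteins of the exit channel. Derl1 was at 1620 in wild-type cells and 2042 in the knockout (0.33, 1.26-fold higher), with 3 of 4 probe sets higher, and 415 of its 500 nearest genes had a smaller difference. Derl2 was at 1978 and 2021 (0.03). Derl3, the family member known from secretory cells such as plasma cells, had 13.7 and 13.4 and was not compared.

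The translocon is the channel through which new proteins enter the ER. Its pore gene Sec61a1 was at 2051 in wild-type cells and 2099 in the knockout (0.03), and the small subunit gene Sec61b at 3741 and 3911 (0.06). Ssr1, of the translocon-associated TRAP complex, was at 2149 and 2239 (0.06). Sec11c, a catalytic subunit gene of the signal peptidase, was at 2917 and 3370 (0.21). At these probe sets all 4 genes were higher but inside the probe set SD. Sec11c had a second, dimmer probe set that was lower, at 137.7 and 114.2 (-0.27). Probe sets of Ssr1 and Sec61a1 also pointed in both directions. A further probe set naming Sec61b and another gene had a difference of 0.22.

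Transcripts of the stress sensors did not reach the size rule at the probe sets that represent them. Eif2ak3, which encodes PERK, was at 270 in wild-type cells and 262 in the knockout (-0.04). Atf6 was at 175 and 203 (0.22), and another of its probe sets had a similar difference of 0.21. Its remaining probe set pointed the other way by more than the probe set SD, at 188 in wild-type cells and 147 in the knockout (-0.36). With averaged probe sets the difference of Atf6 was 0.02. Ern1, which encodes IRE1 alpha, was at 683 and 796 (0.22).

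Xbp1, the transcription factor gene whose mRNA IRE1 splices, was bright and alike on both arrays, at 6606 in wild-type cells and 6224 in the knockout (-0.09). Its second probe set, at 6179 and 6230, had a difference of 0.01, and the remaining pair had 0.10 and 0.16. These small differences cover total Xbp1 transcript only, and splicing was not measured.

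The integrated stress response, in which ATF4 drives amino acid and stress genes, had the highest group median, 0.18, with 4 of 7 genes higher. Atf4 itself was at 2371 in wild-type cells and 2878 in the knockout (0.28), with its second measured probe set at 0.12. Ddit3, which encodes the factor CHOP downstream of ATF4, was at 591 and 528 (-0.16). Ppp1r15a, the gene of GADD34, which reverses eIF2 alpha phosphorylation, was at 503 and 484 (-0.05).

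Targets of ATF4 and CHOP differed among themselves. Trib3, a pseudokinase gene, was at 138 in wild-type cells and 185 in the knockout (0.43), but this probe set is an _x_at set, which can cross-hybridise, and the other, at 107.2 and 106.7, had a difference of -0.01. Sesn2, a stress-induced inhibitor of mTORC1 signalling, was at 252 and 329 (0.38), and its second probe set, below the floor in wild type (40.0 and 101.1), was at least 1.49-fold higher. Asns, asparagine synthetase, was at 543 and 520 (-0.06), with its second probe set at 0.26. Chac1, an enzyme gene of glutathione breakdown, was dim, at 95.5 and 108.5 (0.18). The group median turned to -0.01 without _x_at and _s_at probe sets and to -0.05 with the higher floor, so no direction belongs to this group.

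Probe sets of the same member often pointed in opposite directions. Of 82 member probe sets above the floor on both arrays, 46 lay above 0 and 36 below it, and their median was 0.03. Among the 23 members with at least 2 such probe sets, 17 had some in each direction, and the median gap between the highest and the lowest was 0.33. The 1 member probe set at least 1.5-fold lower belonged to Ern1, at 130.8 in wild-type cells and 75.7 in the knockout (-0.79), so that Ern1 spanned 1.01 log2 units. Over all 20607 measured probe sets naming 1 gene, 4.77% passed the rule as higher and 4.67% as lower, against 1 each of 88 measured member probe sets.

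Another Ern1 probe set was at 183 and 162 (-0.17), and a further one was below the floor in the knockout only (89.5 and 36.9). Of its 4 measured probe sets 3 were thus lower, while the brightest was higher. Ssr1 spanned 0.86 units, with its second probe set at 455 in wild-type cells and 306 in the knockout (-0.58) and a dimmer one at 116 and 141 (0.28). For Sec61a1 the second of 6 probe sets was at 1093 and 1606 (0.56) and another at 394 and 331 (-0.25). Which parts of these transcripts the probe sets cover was not analysed here.

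**Figure D2:**
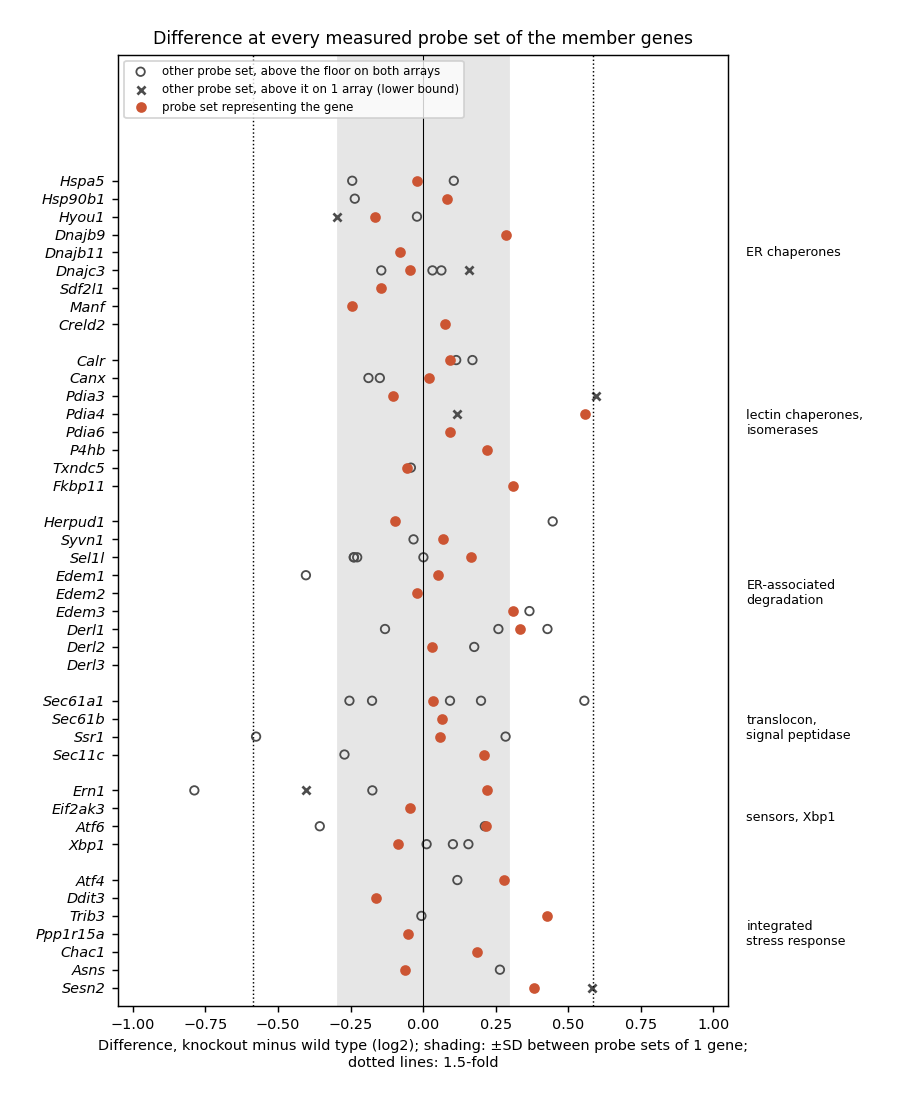
Log2 difference, knockout minus wild type, at each measured probe set of the member genes: filled points represent the gene, open points are its other probe sets, and crosses are lower bounds. The shaded band is the SD of 0.29 between probe sets of 1 gene and the dotted lines mark 1.5-fold; the lowest point is the Ern1 probe set at -0.79.

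The size of the differences depended on how the arrays were scaled, since the knockout array was brighter throughout. Without scaling, the median of all measured genes was 0.54 and that of the members 0.63, and 23 members were at least 1.5-fold higher, beside 43.5% of all genes. Scaling on 18 hybridisation control probe sets gave 0.23 for all genes and 0.31 for the members. Pdia4 (0.82), Trib3 (0.63), Sesn2 (0.63) and Derl1 (0.61) then passed 1.5-fold, beside 12.2% of all genes as higher. Median centring left Pdia4 alone past it (0.72), beside 7.63% of all genes, and put 38 of the 40 members above 0, against 25 in quantile normalized values. With averaged probe sets, which left 38 members measured, Sesn2 (0.86), Pdia3 (0.74) and Pdia4 (0.60) passed as higher, beside 4.69%, and Edem2 (-0.92) as lower, beside 4.25%, each of these 4 genes having a second probe set under the floor on 1 or both arrays. Relative to the median of all genes, the member median was higher by 0.05 in quantile normalized values, 0.06 with loess, 0.07 with median centring, 0.08 on the controls and 0.10 unscaled.

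The matched promoters were set beside the differences. This left out the 6 members without a promoter entry, among them Manf (-0.24) and Derl1 (0.33). The 8 measured members with an ERSE lay between -0.05 (Dnajc3) and 0.09 (Calr), with a median of 0.07. The 26 measured members whose promoter entry had no exact match lay between -0.16 (Ddit3) and 0.56 (Pdia4), with a median of 0.06. Over every probe set above the floor on both arrays, the span was -0.24 to 0.17 for 19 probe sets of the former and -0.79 to 0.56 for 45 of the latter. Genes with the element included the brightest members, such as Hsp90b1, Hspa5 and Calr, and bright probe sets scatter less, so the part of signal level in this narrower span was not tested. The group with the element was also the smaller, and a span from lowest to highest tends to widen with the number of values. No test was made of the difference in span. The order of the medians turned with the processing, to 0.02 with and 0.07 without the element under loess, 0.01 and 0.14 with averaged probe sets and 0.56 and 0.63 without scaling. The span with the element, 0.14 from lowest to highest, was 0.28 without _x_at and _s_at probe sets.

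**Figure D3:**
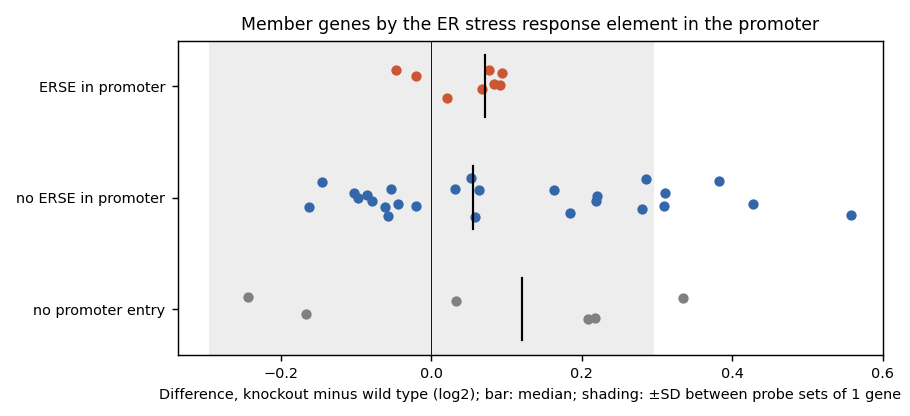
Log2 difference, knockout minus wild type, of the 40 measured members, split into those with an exact ERSE in the promoter, those with a promoter entry and no match, and those with no entry; vertical bars are medians (0.07 with and 0.06 without the element). The points with the element lie between -0.05 and 0.09, inside the shaded band of the probe set SD.

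The last part of the ERSE, CCACG alone, is short and common, and stood in 30 of the 39 member promoters (76.9%) against 32.8% of all promoters, counting those that hold a whole ERSE or ERSE-II. ERSE-II, which is ATTGG, 1 free base and CCACG, stood in 2 member promoters, those of Herpud1 (-0.10) and Dnajb11 (-0.08), and in 12 promoters of the whole table. The unfolded protein response element TGACGTGG was found for Txndc5 alone, and for 222 promoters in all. The C/EBP-ATF element TTGCATCA, of the kind through which ATF4 acts, stood in the promoters of Chac1 (0.18) and Herpud1, against 0.895% of all promoters. Its looser form, TGATG, 1 free base and AA, which covers the former on the other strand, stood in 5 of the 39 member promoters (12.8%), against 3.95% of all promoters. Besides Chac1 and Herpud1 these were Asns (-0.06), Trib3 (0.43) and Txndc5 (-0.06). All were searched on both strands, and no match says only that these letters are not in this window.

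The wider secretory pathway was followed in 7 lists of genes that are no members, with 154 genes measured. Of these, 4 passed 1.5-fold as higher and 2 as lower, beside 4.57% and 4.1% of all genes, and the median was 0.06. In the list of other translocon, signal peptidase and targeting genes, 17 of 18 were higher, beside 51.5% of all measured genes, with a median of 0.20. The count was 15 without _x_at and _s_at probe sets. It was 14 with averaged probe sets, and also 14 where the least different probe set stood for the gene. Several of these genes, such as Sec62, Ssr4 and Srp14, had probe sets in both directions. Srprb, a subunit gene of the signal recognition particle receptor, was at 246 in wild-type cells and 388 in the knockout (0.66, with 3 of 3 probe sets higher). The median of this list relative to all genes stayed above 0 under the 10 settings but ranged from 0.06 to 0.24, and was 0.08 with averaged probe sets.

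Other folding and oxidation enzymes had a median of 0.13 over 22 genes, N-glycosylation genes 0.07 over 22 and COPII and COPI transport genes 0.07 over 28. None of these genes passed 1.5-fold, and the first median, less that of all genes, turned to -0.01 with averaged probe sets. Among 19 other degradation factors the median was -0.01. Rnf5, a ubiquitin ligase gene of the ER membrane, was the 1 gene past the rule there, at 786 in wild-type cells and 523 in the knockout (-0.59).

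Among 21 other regulators of the response, with a median of 0.06, 3 passed the rule, all dim in wild type. Creb3l2, an ATF6-like factor gene, was at 79.8 in wild-type cells and 142.2 in the knockout (0.83), though its second probe set pointed the other way. Wfs1, which encodes an ER membrane protein that restrains ATF6, was at 118.8 and 191.0 (0.69), and Creb3l3 at 82.2 and 126.4 (0.62). Of 24 other genes linked to ATF4, 10 were above 0 and 14 below, the median was -0.07, and Ddit4, an mTORC1 inhibitor gene induced by stress, passed the rule at 258 and 143 (-0.85).

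**Figure D4:**
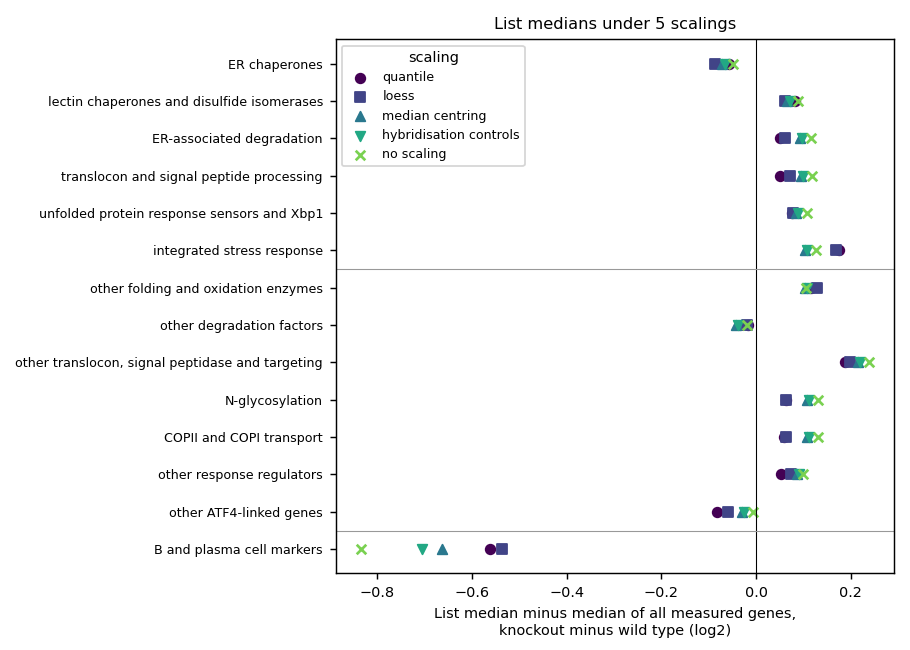
Median log2 difference of each list minus the median of all measured genes, for the 6 role groups of members (top), 7 other pathway lists (middle) and B and plasma cell markers (bottom), under 5 scalings. The member groups lie between -0.09 and 0.17 whatever the scaling, while the B and plasma cell markers lie at -0.54 or lower.

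Plasma cells are rich in ER chaperones, so markers of that lineage were placed beside the members. Of 15 measured B and plasma cell markers 12 were lower in the knockout and 7 at least 1.5-fold lower, beside 4.1% of all genes. Their median was -0.55, and their summed signal was 4239 in wild-type cells and 2500 in the knockout. However, 6 of the 15 were above the floor in wild type only and so could only come out lower. These were Mzb1, Spib, Cd79b, Ms4a1, Pou2af1 and Iglv1. Of the markers past 1.5-fold, Ighm, Jchain, Igha and Tnfrsf13c were above the floor on both arrays. Ighm fell from 734 to 142, Jchain from 436 to 92.6 and Mzb1, a chaperone of immunoglobulin assembly, from 253 to under the floor (37.5), at least 3.75-fold. Ighm had 8 measured probe sets, of which 3 pointed the other way. The 3 higher markers of the list, all of plasma cells, were Sdc1 (482 and 646, 0.42), Bhlha15 (73.2 and 89.2, 0.29) and Prdm1 (324 and 343, 0.08). Cd79b (99.2 and 41) and Ms4a1 (97.9 and 52.2) were above the floor in wild type only, and Cd79a lay below it on both arrays. Their part in the members' values was not tested.

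**Figure D5:**
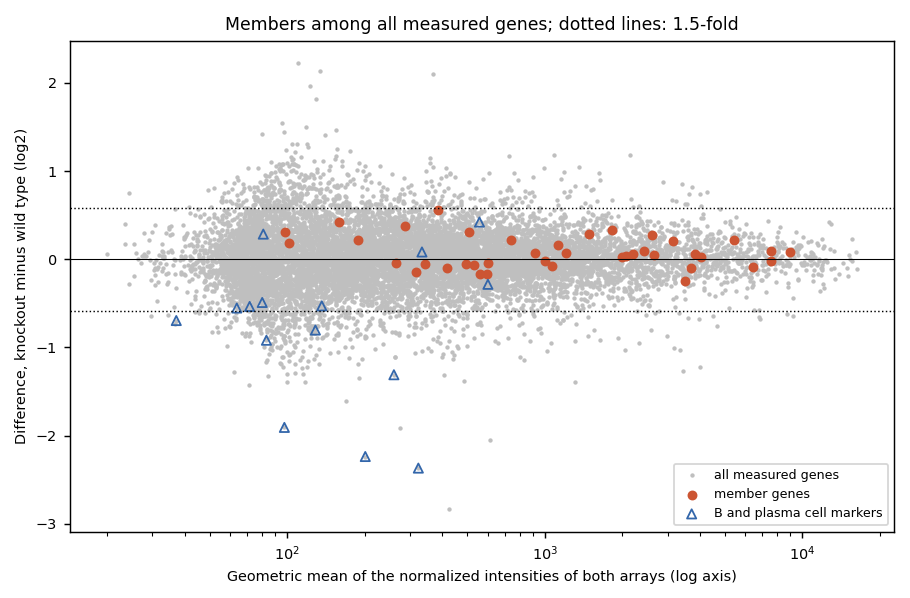
Log2 difference, knockout minus wild type, against the geometric mean of the normalized intensities of both arrays (log axis) for all 11878 measured genes (grey), the 40 measured members (filled points) and 15 B and plasma cell markers (triangles). The members lie inside the dotted 1.5-fold lines, and several markers lie below -1.

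Markers of other cell types differed too. Beside the counts past 1.5-fold below stand 4.57% of all genes as higher and 4.1% as lower. Granulocyte markers had a median of -0.36 over 11 genes. Ltf, above the floor in wild type only, passed 1.5-fold as lower, but S100a8 (4517 and 6093) and Mmp8 (3736 and 4845) were higher. The summed signal of the 11 was 11314 in wild type and 13232 in the knockout. Mast cell and basophil markers had a median of -0.46 over 8 genes, with Mcpt8, Cpa3 and Hdc past 1.5-fold as lower. Of these 8 genes, 4 were above the floor in wild type only, among them Mcpt8 and Cpa3, and so could only come out lower. Kit differed little (-0.05), and Cma1 was higher (0.15). Macrophage markers had a median of 0.20 over 10 genes, which depended on the scaling. Less the median of all genes it was 0.19, but 0.07 with loess and 0.03 with median centring or on hybridisation controls. Ctsk (1.09), Mrc1 (1.06) and Mertk (0.81) passed the size rule as higher. In contrast 4 were lower, among them Cd14 (10690 and 7911, -0.43) and Fcgr1 (-0.24). The summed signal of the 10 was 53026 in wild type and 52674 in the knockout. Of 19 dendritic cell markers 16 were lower, with a median of -0.15, and Cd80 (-0.79), Irf8 (-0.66) and Cd83 (-0.64) passed the size rule. RNA integrity, read as 3' over 5' control signal, was alike: 1.28 in wild type and 1.25 in the knockout for Actb and 0.843 and 0.883 for Gapdh. The part of cell make-up and RNA quality in the members' differences was not tested.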

How the data were processed

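Total RNA from 2 cultures, 1 per genotype, was labelled with biotin from 6 ug by the standard Affymetrix procedure, per the labels' protocols. The authors deposited 1 linear intensity per probe set and array; the sources used here do not name the algorithm or its scaling. From these values, the 45037 probe sets other than 64 controls were log2 transformed and quantile normalized, since the array medians differed by 34.1%, over the limit of 10% set for this step. The floor was the median of all normalized values. Gene names came from the platform annotation, updated through the RefSeq gene table (GRCm38.p6), which held 18032 of the 18193 genes. The 41 members and all lists were chosen with earlier results of these data known. The text names every member, the largest differences past 1.5-fold in the other lists, and defining markers of dendritic, B and plasma cells.

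No test was run, because each group is 1 array, and the number of arrays limits the precision. Alternatives were no scaling, median centring, hybridisation controls, loess (span 0.4), averaged probe sets, no _x_at or _s_at sets, no floor, a 75th percentile floor and the least different probe set. The functions were tested on simulated data. Python 3.11.15, numpy 2.4.6, pandas 2.3.3 and statsmodels 0.14.6 were used.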

Additional observations from a re-analysis of the deposited data

Results flagged for a closer look

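Array controls against 18S ribosomal RNA, outside every comparison made here, had higher deposited intensities on the knockout array: 457.0 against 126.1 at the 3' probe set, 581.9 against 95.1 at the 5' one and 389.2 against 107.0 at the middle one. These values exceed the overall shift between the arrays, and their bearing on the members was not tested.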

How the results depend on the processing

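No paired analysis was possible because each genotype had 1 sample. Replicates could not be left out for the same reason. Without scaling, the median was 0.63 for all members, 0.49 for ER chaperones, 0.63 for lectin chaperones and isomerases, 0.65 for ER-associated degradation, 0.66 for the translocon, 0.65 for sensors and Xbp1 and 0.66 for the integrated stress response, and 23 members were at least 1.5-fold higher, where the median of all genes was 0.54. The number at least 1.5-fold higher was 1 (Pdia4) with median centring, beside 7.63% of all genes, 4 on hybridisation controls, beside 12.2%, and 3 with averaged probe sets, beside 4.69%. Averaging also put 1 member, Edem2, at least 1.5-fold lower, beside 4.25% of all genes; its second probe set lies below the floor at 28.9 and 8.22. Trib3 was at -0.0061 without _x_at and _s_at probe sets and with the least different probe set, and Derl1 was at -0.13 with the latter. Ern1 turned from 0.22 to -0.33 with averaged probe sets and to -0.17 with the least different one, and Ddit3 from -0.16 to 0.18 with averaged ones. The median of sensors and Xbp1 turned to -0.04 with the higher floor and to -0.02 with the least different probe set, that of ER-associated degradation to -0.01 with the latter. In the other settings the counts past 1.5-fold stayed at 0. Dim members (Fkbp11, Chac1, Trib3) are close to the floor, and signals under it give no difference.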
